A study of Mus musculus with 7 samples.

Results

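Genes of glutathione, peroxiredoxin and thioredoxin metabolism were compared between sorted populations of mouse bone marrow that are labelled as stromal and as endothelial cells. The members were chosen by gene symbol alone: glutathione S-transferases of the alpha, mu, omega, pi and theta classes, microsomal transferases, glutathione peroxidases, peroxiredoxins, symbols starting with Txn, superoxide dismutases, and Cat, Gclc, Gclm, Gss, Gsr, Nqo1, Nfe2l2, Keap1 and Srxn1. Probe sets with exactly 1 symbol gave 62 such genes of 18193 on the array. The symbol rule also takes in genes with other main functions, such as Txnl4a, which encodes a spliceosome protein.

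The data are 7 Affymetrix Mouse Genome 430 2.0 arrays, hybridised with RNA from wild type C57Bl/6J mice, described as young adults and as 6 to 12 weeks old. Cells were sorted from bone marrow as negative for CD45 and lineage markers, 1800 to 10000 cells per sample, and their RNA was amplified before hybridisation. The first group, labelled bone marrow stromal cells, was CD54+CD31-BP1+ and has 4 arrays (stromal 1 to 4). The second, labelled bone marrow endothelial cells, was CD54-CD31+ and has 3 arrays (endothelial 1 to 3). No treatment is recorded for either group. The labels leave unsaid whether replicates were separate mice or separate sorts. A p-value therefore covers the spread between these samples, which may be technical. All levels are log2 values as deposited, and every difference is stromal minus endothelial. In such bulk samples, fewer cells of a type and less RNA per cell cannot be told apart.

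Glutathione is a tripeptide that reduces peroxides and conjugates reactive compounds. Glutamate-cysteine ligase (Gclc and Gclm) makes its precursor, glutathione synthetase (Gss) completes it, and glutathione reductase (Gsr) regenerates it with NADPH. Glutathione peroxidases spend glutathione on peroxides, whereas peroxiredoxins are reduced mostly by thioredoxin, which thioredoxin reductase recharges. Many of these genes are targets of NRF2 (Nfe2l2), a transcription factor that pairs with small MAF proteins on antioxidant response elements and is held down by KEAP1.

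The 4 stromal arrays carried all 12 listed reticular stroma markers as higher (mean level 12.85 to 12.98, against 5.47 to 6.65 on the endothelial arrays). Among them Enpep encodes the sorting marker BP1, so its direction was set by the sort. The endothelial label was less well borne out: 4 of 9 endothelial markers tested were higher there (Pecam1, Kdr, Plvap and Esam, where Pecam1 encodes the sorting marker CD31). Eng went the other way without overlap (8.19 to 8.62 on stromal, 7.46 to 7.56 on endothelial arrays) but was not called. The mean level of the whole list was 6.96 to 7.14 on the endothelial arrays against 5.65 to 5.80. Cdh5, the defining endothelial cadherin, lay below the filter for dim genes, as did Emcn, Tek, Tie1 and Robo4. The marker genes other than Cdh5 were named after their values were seen. Beside the counts of marker calls in this paragraph, 16.1% of all genes tested were called endothelial and 30.9% stromal. All 10 megakaryocyte and platelet markers were higher on the endothelial arrays, at a mean level of 13.42 to 13.80 against 5.82 to 8.40, the upper end from stromal 4. Neutrophil markers (6 of 11 higher, mean level 9.01 to 12.18 against 7.41 to 9.62), monocyte and macrophage markers (4 of 7, and 1 the other way, 6.88 to 7.60 against 5.64 to 6.24), B-lineage markers (8 of 11, and 1 the other way, 7.48 to 9.19 against 6.38 to 7.16), mast cell and basophil markers (4 of 7, and 1 the other way, 7.12 to 8.42 against 5.40 to 6.15) and erythroid markers (3 of 7, 6.82 to 8.22 against 5.48 to 6.90) also leaned to the endothelial arrays. Without endothelial 3 the neutrophil count was 10, and with the hybridisation-control block it was 1, as was the B-lineage count. The stromal calls among monocyte and mast cell markers were lost when most single arrays were left out. The part of these cells in the results below was not tested. Spiked hybridisation controls averaged 11.33 on endothelial 2 and 11.37 on endothelial 3, whereas every other array lay between 9.51 and 9.75. With this split as a block, endothelial 1 is the only array of its population that meets stromal ones.

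The redox members went both ways. Of the 62 members 58 passed the filter for dim genes, which required 3 arrays above their own 40th percentile (5.48 to 5.79). A gene was called when limma's adjusted p lay under 0.05 and the log2 difference was at least 1. Genes called stromal were higher on the stromal arrays, and genes called endothelial on the others. By that rule 23 members were called stromal, 13 endothelial and 22 neither. That is 39.7% and 22.4% of the members tested, beside 30.9% and 16.1% of all 13995 genes tested (47% in either direction). The filter passes genes that are bright in one group only, so these shares are descriptions. Among the 45 members above their 40th percentile on all 7 arrays, 14 (31.1%) were called stromal and 11 (24.4%) endothelial, beside 27.6% and 14.8% of all genes of that kind. The median difference was 0.56 over the members tested and 0.19 over all genes tested. Without overlap between groups were 48 of 62 members (77.4%), and 68.5% of all genes on the array.

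**Figure D1:**
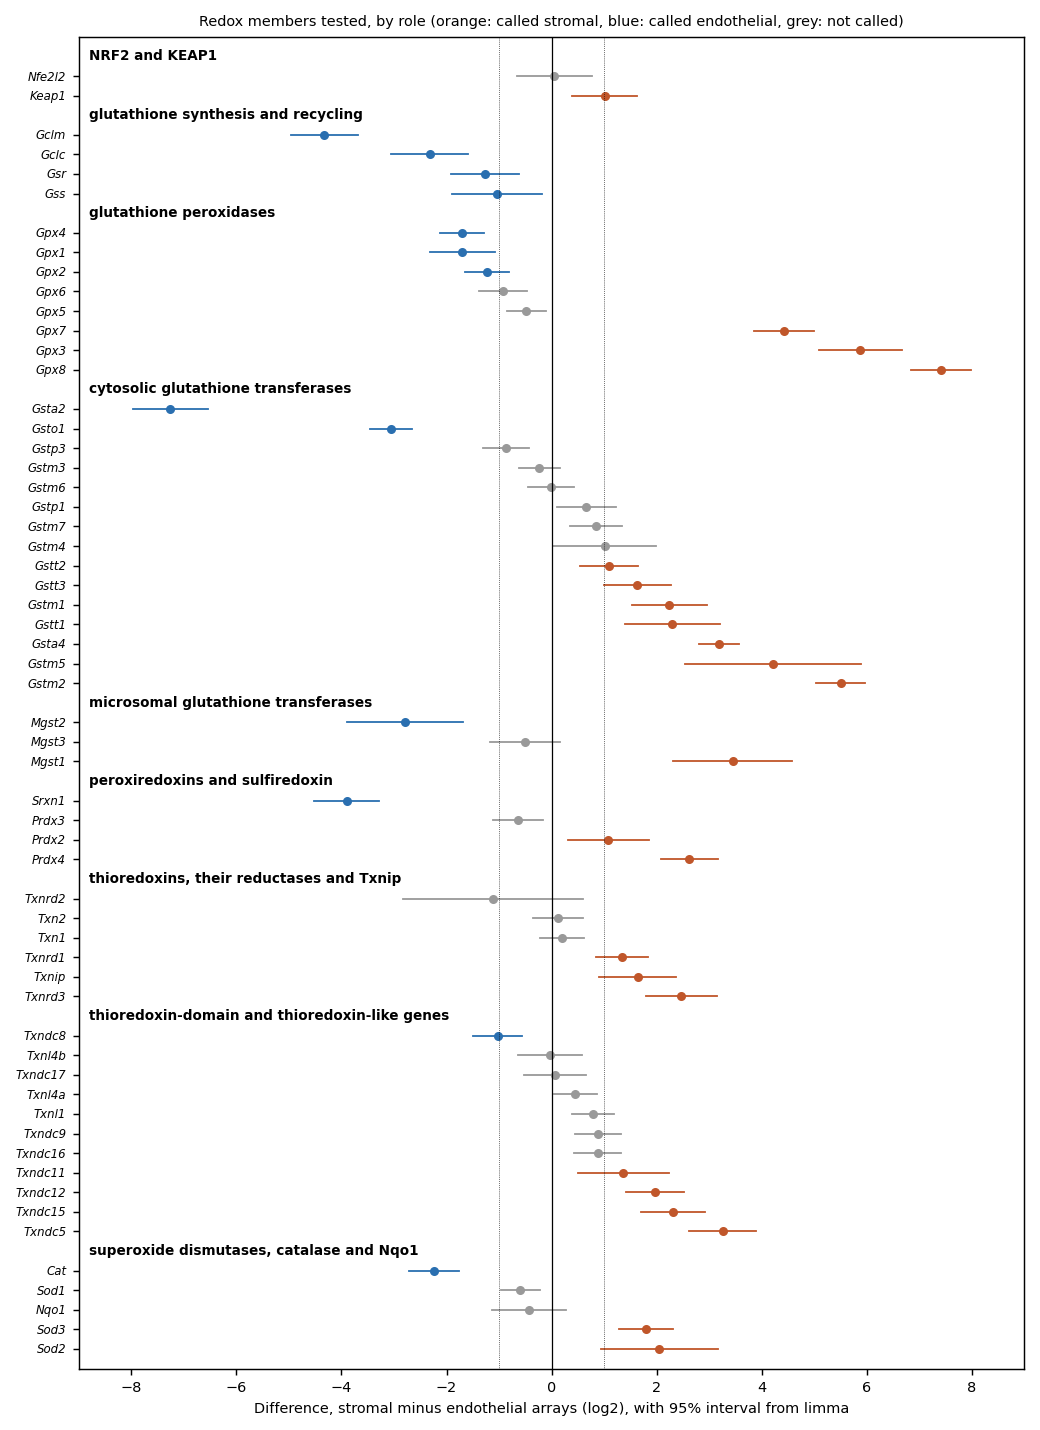
Differences, stromal minus endothelial (log2, horizontal axis), of the 58 members tested with limma's 95% intervals, grouped by role; dotted lines stand at a difference of 1 in each direction. All 4 genes of glutathione synthesis and recycling lie left of 0, while the peroxidases split into Gpx1, Gpx2, Gpx4, Gpx5 and Gpx6 on the left and Gpx3, Gpx7 and Gpx8 on the right.

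The transcript of NRF2 itself showed no difference that could be told from the spread. Nfe2l2 lay at 10.70, 11.05, 11.14 and 11.98 on stromal 1 to 4 and at 11.49, 11.05 and 10.96 on endothelial 1 to 3. The groups overlapped, and the difference was 0.05 (95% interval -0.66 to 0.77, limma adjusted p = 0.891). Keap1, whose product targets NRF2 for degradation, lay at 10.92, 11.34, 11.28 and 11.14 against 10.21, 10.68 and 9.58. All stromal arrays were above all endothelial arrays, and the difference of 1.01 (SE 0.27, adjusted p = 0.0108) stood at the edge of the threshold. It fell short without stromal 2 (0.96), stromal 3 (0.97) or endothelial 3 (0.73). The same held for the mean of its probe sets (0.95), cyclic loess (0.68), quantile normalization applied again (0.79), ribosomal centring (0.95) and the hybridisation-control block (0.96).

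By the probe sets used, the genes that make and regenerate glutathione were all called endothelial (4 of 4 tested, median difference -1.79). Of all genes tested, 16.1% were. The calls of Gsr and Gss were lost under several alternatives, while those of Gclm and Gclc held under each. Gclm, the modifier subunit of glutamate-cysteine ligase, lay at 9.34, 9.11, 9.01 and 8.63 on stromal 1 to 4 and at 13.87, 12.88 and 13.31 on endothelial 1 to 3. The groups stood far apart: the endothelial arrays were 20.1-fold higher (9.02 ± 0.30, SD, n = 4, against 13.35 ± 0.50, n = 3, adjusted p = 5.32e-06). Gclc, the catalytic subunit of the same enzyme, lay at 8.35, 8.05, 8.09 and 7.24 against 10.11, 9.88 and 10.77, which is 4.99-fold (adjusted p = 4.40e-04). Its difference of -2.32 was -2.95 after cyclic loess. In these probe sets stromal 4, the stromal array with the highest megakaryocyte marker level, was the lowest array for both subunits. In the second probe set of Gclc it was the highest stromal array (8.35, others 7.82 to 8.12), and in that of Gclm, at 5.66, it lay above stromal 1 and stromal 3 (5.41 and 5.37).

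The later steps differed less. Gsr, the reductase that recycles oxidised glutathione, lay at 9.27, 9.92, 9.23 and 10.24 against 10.83, 11.04 and 10.93, without overlap (2.41-fold in favour of the endothelial arrays, adjusted p = 0.00455). Its call was lost with the mean of its probe sets (-0.73) and with the hybridisation-control block (-1.17, adjusted p = 0.0539). In the second probe set of Gsr the groups overlapped, with a difference of -0.19. Gss lay at 8.10, 8.62, 8.53 and 8.37 against 8.71, 9.24 and 10.38, and only endothelial 3 stood well above the stromal arrays. Its difference of -1.04 (adjusted p = 0.0359) was -0.57 without endothelial 3, and adjusted p rose above the threshold when any one of the 4 stromal arrays was left out (-0.94 without stromal 1, -1.11 without stromal 2, -1.08 without stromal 3 and -1.03 without stromal 4). The Gss call was also lost with the mean of its probe sets (-0.96), array weights (-0.80), probe sets specific to 1 gene (-0.88) and the hybridisation-control block (-0.30, adjusted p = 0.566), while cyclic loess brought the difference to -1.68 and quantile normalization applied again to -1.60.

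**Figure D2:**
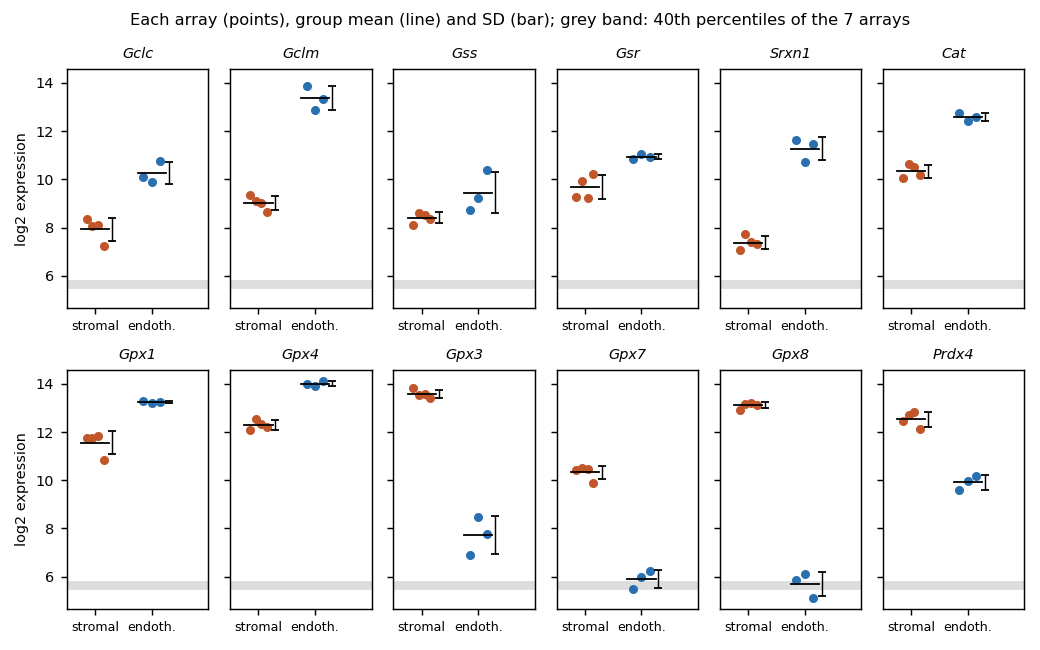
Log2 expression (vertical axis) on each stromal (orange) and endothelial (blue) array for 12 members, with the group mean (line) and SD (bar); the grey band spans the arrays' 40th percentiles, 5.48 to 5.79. Gclm lies at 8.63 to 9.34 on the stromal and 12.88 to 13.87 on the endothelial arrays, and Gpx8 at 12.93 to 13.20 and 5.12 to 6.10.

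The promoter letters of 3 members are shown because these known NRF2 targets went opposite ways by the probe sets used. Gclm and Srxn1 were higher on the endothelial arrays and Txnrd1 on the stromal arrays. The direction of Txnrd1 is less certain. Its second tested probe set stood at -0.20, and its call was lost with the mean of its probe sets and under both renormalizations. The core letters of the antioxidant response element, TGACNNNGC and TGAGNNNGC, were searched on both strands of RefSeq windows (assembly GRCm38.p6) from 250 bases before to 50 after a gene start. Capitals mark the matches.
Gclm, chr3:122245307-122245606, plus strand: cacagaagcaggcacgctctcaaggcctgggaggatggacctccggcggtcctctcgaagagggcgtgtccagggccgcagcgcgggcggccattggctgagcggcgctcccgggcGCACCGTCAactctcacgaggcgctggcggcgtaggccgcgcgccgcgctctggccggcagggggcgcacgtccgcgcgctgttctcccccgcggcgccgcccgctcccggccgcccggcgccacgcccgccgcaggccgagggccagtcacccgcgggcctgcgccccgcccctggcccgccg
Srxn1, chr2:152105274-152105573, plus strand: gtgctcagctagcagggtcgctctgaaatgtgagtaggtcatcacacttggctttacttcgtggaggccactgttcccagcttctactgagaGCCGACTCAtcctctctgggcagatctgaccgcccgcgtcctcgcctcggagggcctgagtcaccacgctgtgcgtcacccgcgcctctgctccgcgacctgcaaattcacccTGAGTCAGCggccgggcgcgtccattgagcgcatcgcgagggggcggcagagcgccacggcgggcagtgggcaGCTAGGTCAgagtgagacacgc
Txnrd1, chr10:82858956-82859255, plus strand, 1 of its 3 windows: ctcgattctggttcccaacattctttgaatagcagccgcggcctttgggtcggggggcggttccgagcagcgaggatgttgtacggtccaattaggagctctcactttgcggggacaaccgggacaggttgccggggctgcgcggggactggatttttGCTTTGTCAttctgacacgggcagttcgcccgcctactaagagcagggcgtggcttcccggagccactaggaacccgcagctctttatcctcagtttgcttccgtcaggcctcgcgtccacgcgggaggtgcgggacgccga
In Gclm the match reads TGACGGTGC on the opposite strand, 134 bases before the start. Srxn1 held TGAGTCAGC on the gene's strand 45 bases before the start, TGAGTCGGC on the opposite strand 158 bases before it and TGACCTAGC on the opposite strand, 28 bases after it. In Txnrd1 the match reads TGACAAAGC on the opposite strand, 92 bases before the start, and its other windows held no match. A match describes these letters and is no evidence of binding. Either pattern occurred in 27.8% of all 32851 windows and in 20 of the 72 windows of members (27.8%). By gene, 19 of the 55 members with a window held a match (34.5%), beside 30.8% of all genes with one. A match was found in 8 of 20 members called stromal, 2 of 11 called endothelial and 6 of 20 tested and not called.

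The glutathione peroxidases divided between the populations, with 3 members called stromal, 3 endothelial and 2 neither. Of all genes tested, 30.9% were called stromal and 16.1% endothelial. Gpx8, a peroxidase of the endoplasmic reticulum, lay at 12.93, 13.16, 13.20 and 13.13 on stromal 1 to 4 and at 5.85, 6.10 and 5.12 on endothelial 1 to 3. Its difference of 7.41 (SE 0.25, adjusted p = 2.61e-07) was the highest of all members, and the endothelial mean lay below the 40th percentile, so no fold is given. Gpx7, the other peroxidase of that compartment, lay at 10.42, 10.50, 10.47 and 9.90 against 5.47, 6.00 and 6.22, 21.5-fold in favour of the stromal arrays (adjusted p = 2.51e-06). Gpx3, the secreted plasma peroxidase, lay at 13.81, 13.54, 13.57 and 13.42 against 6.90, 8.47 and 7.78, which is 58.6-fold (adjusted p = 3.14e-06). No endothelial array came near the stromal values of these 3 genes. Cyclic loess brought Gpx7 from 4.43 to 3.77, and the hybridisation-control block brought Gpx3 from 5.87 to 6.69.

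The peroxidases called endothelial were Gpx1, Gpx4 and Gpx2. Gpx1, the abundant cytosolic peroxidase, lay at 11.75, 11.77, 11.84 and 10.84 against 13.29, 13.22 and 13.24 (3.25-fold, adjusted p = 8.97e-04). Gpx4, which reduces lipid peroxides in membranes and protects against ferroptosis, lay at 12.08, 12.54, 12.34 and 12.21 against 13.97, 13.91 and 14.11 (3.26-fold, adjusted p = 9.07e-05). Neither gene overlapped between groups, and the endothelial arrays agreed closely with each other. Gpx2, best known from the gut epithelium, was 2.34-fold higher on the endothelial arrays at low levels (6.85 to 7.23 against 5.60 to 5.98, adjusted p = 7.14e-04) and missed the threshold after cyclic loess (-0.97). Gpx5 and Gpx6, known from epididymis and olfactory tissue, were not called. Their differences were -0.48 (adjusted p = 0.0276) and -0.93 (adjusted p = 0.00418, and called at -1.22 with the hybridisation-control block and at -1.09 without endothelial 2), both from levels near the arrays' lower end.

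Among cytosolic glutathione transferases, 7 of 15 members tested were called stromal, 2 endothelial and 6 neither. Over all genes tested, the shares were 30.9% stromal and 16.1% endothelial. Of the 18 on the array, Gsta3, Gsto2 and Gstt4 lay below the filter. These enzymes attach glutathione to electrophiles and share much sequence within a class, so a probe set can also report near-identical relatives, and values of single mu or alpha genes are uncertain in that respect. The genes with the widest gaps lay at opposite ends. Gsta2 lay at 4.21, 4.75, 4.53 and 5.45 on stromal 1 to 4 and at 12.19, 11.61 and 12.17 on endothelial 1 to 3. That difference of -7.26 (SE 0.31, adjusted p = 6.89e-07) has a stromal mean below the 40th percentile, and stromal 4 was the stromal array closest to the endothelial ones. Gsto1, an omega-class transferase that also acts as a reductase, lay at 8.23, 8.55, 8.49 and 8.50 against 11.63, 11.33 and 11.55 (8.34-fold in favour of the endothelial arrays, adjusted p = 2.72e-06).

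The mu class leaned to the stromal arrays where it was called. Gstm2 lay at 9.78, 9.64, 9.27 and 9.23 against 4.06, 4.07 and 3.81, all of the latter below the 40th percentile (difference 5.50, adjusted p = 3.80e-07). Gstm5 lay at 10.11, 10.38, 10.49 and 9.77 against 8.08, 4.87 and 4.95, so that endothelial 1 stood apart from the other two. Its difference of 4.22 (adjusted p = 0.00143) was 5.27 without endothelial 1, 3.57 after cyclic loess and 2.10 under the hybridisation-control block, which leaves endothelial 1 as the only array of its population. Gstm1 was 4.74-fold higher (9.53 ± 0.26, n = 4, against 7.29 ± 0.66, n = 3, adjusted p = 4.69e-04), and its 4 probe sets ranged from 0.45 to 2.47. Its difference of 2.24 was 1.56 with the mean of the probe sets and 1.59 after cyclic loess. Gstm4 overlapped between groups through endothelial 2, at 8.56, and was not called (1.01, adjusted p = 0.0636), but was without endothelial 2 (1.52, adjusted p = 0.00331), with array weights (1.32) and with the hybridisation-control block (2.09). Gstm3, Gstm6 and Gstm7 were not called, with differences of -0.23, -0.01 and 0.85. The block brought Gstm7 to 1.08 and past the threshold.

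Among the other classes, Gsta4, which acts on the lipid peroxidation product 4-hydroxynonenal, lay at 10.17, 10.32, 10.18 and 10.18 against 7.13, 6.83 and 7.13 (9.08-fold, adjusted p = 1.81e-06). Its difference of 3.18 was 2.54 after cyclic loess. The theta genes Gstt1, Gstt2 and Gstt3 were higher on the stromal arrays as well, by 2.29, 1.09 and 1.63 on the log2 scale. Their adjusted p-values were 0.00139, 0.00488 and 0.00133, and Gstt2 missed the threshold without endothelial 1 (0.91). The hybridisation-control block brought Gstt3 to 2.28. Gstp1, the pi-class enzyme common in many tissues, did not reach the required difference (11.82 ± 0.19 against 11.16 ± 0.45, 0.66 with a 95% interval of 0.11 to 1.22, adjusted p = 0.0386). Gstp3 stood at -0.87 and was called with quantile normalization applied again (-1.08) and with the hybridisation-control block (-1.17).

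**Figure D3:**
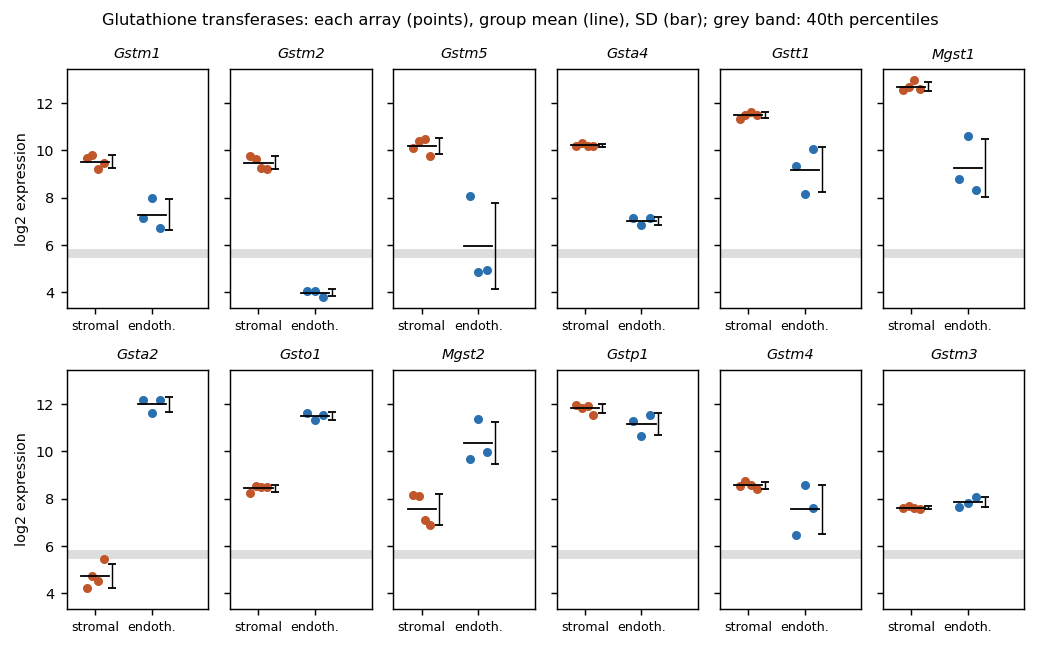
Log2 expression (vertical axis) of 12 transferase genes on each stromal (orange) and endothelial (blue) array, with the group mean (line), SD (bar) and the band of the 40th percentiles. Gsta2 and Gstm2 lie far apart in opposite directions, at 4.21 to 5.45 against 11.61 to 12.19 and at 9.23 to 9.78 against 3.81 to 4.07.

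The microsomal transferases, membrane proteins with transferase and peroxidase activity, gave 1 call each way. Mgst1 lay at 12.55, 12.69, 12.97 and 12.58 on stromal 1 to 4 and at 8.81, 10.63 and 8.32 on endothelial 1 to 3 (10.9-fold in favour of the stromal arrays, adjusted p = 5.33e-04). Endothelial 2 was nearest to the stromal arrays, and without it the difference of 3.44 was 4.13. Of the 3 endothelial arrays it held the highest reticular stroma marker level (6.65, against 5.47 and 6.13). Its B-lineage, neutrophil, monocyte and mast cell marker levels were the highest too. The part of any of these cells in the Mgst1 values was not tested. A dim second probe set brought Mgst1 to 1.60 in the mean of both. Mgst2, which can also make leukotriene C4, lay at 8.15, 8.10, 7.11 and 6.89 against 9.69, 11.36 and 9.99 (6.88-fold in favour of the endothelial arrays, adjusted p = 0.00144). Endothelial 2 was the highest array here. The difference of -2.78 was -3.43 after cyclic loess, -2.13 with the hybridisation-control block and -2.05 when stromal 4 and endothelial 2 were both left out. Mgst3 was not called (-0.51, 95% interval -1.17 to 0.15), although quantile normalization applied again and cyclic loess brought it to -1.11 and -1.09 and past the threshold.

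Peroxiredoxins reduce peroxides through a cysteine that can be over-oxidised, and sulfiredoxin (Srxn1) repairs that form. Srxn1 lay at 7.05, 7.73, 7.39 and 7.33 on stromal 1 to 4 and at 11.62, 10.73 and 11.48 on endothelial 1 to 3. The endothelial arrays were 14.9-fold higher (adjusted p = 8.00e-06), and all 4 probe sets of the gene were called that way, from -2.35 to -3.90. With their mean the difference was -3.10, and after cyclic loess it was -4.52. Prdx4, the peroxiredoxin of the endoplasmic reticulum, went the other way, at 12.46, 12.70, 12.82 and 12.13 against 9.59, 9.95 and 10.18 (6.16-fold in favour of the stromal arrays, adjusted p = 3.66e-05, and 1.57 in place of 2.62 on the log2 scale with the mean of its probe sets).

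The cytosolic Prdx2, abundant in red cells, lay at 12.13, 12.43, 12.60 and 11.87 against 11.93, 11.03 and 10.58. It was called (1.08, adjusted p = 0.0205) although endothelial 1, which had the highest erythroid marker level of all arrays at 8.22, lay above stromal 4. In its second probe set the groups did not overlap (11.28 to 11.57 against 10.23, 10.75 and 8.50, difference 1.60). There endothelial 1 lay below endothelial 2. The call of the gene was lost without stromal 2 (1.02), without stromal 3 (0.97), without endothelial 3 (0.78), after cyclic loess (0.94) and with the hybridisation-control block (0.33). Prdx3, the mitochondrial form, was higher on every endothelial array (9.84 to 10.56 against 9.41 to 9.69) but short of the required difference (-0.63, adjusted p = 0.0258). It passed with quantile normalization applied again (-1.04), cyclic loess (-1.12) and the hybridisation-control block (adjusted p = 0.0132). Prdx1, Prdx5 and Prdx6 are not analysed here.

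The thioredoxins themselves did not differ beyond their spread. Txn1, the cytosolic form, lay at 12.72, 13.04, 13.19 and 12.75 against 12.78, 12.75 and 12.66 (difference 0.20, 95% interval -0.23 to 0.62, adjusted p = 0.358). Txn2, the mitochondrial form, lay at 9.28, 9.51, 9.32 and 9.39 against 9.37, 9.54 and 8.87 (0.12, -0.35 to 0.59, adjusted p = 0.621). In both genes the groups overlapped, and both intervals lay within 1 of 0.

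Of the reductases and Txnip, 3 of 4 were called stromal, beside 30.9% of all genes tested. Txnip, which binds and inhibits thioredoxin and limits glucose uptake, lay at 13.21, 13.34, 12.80 and 13.06 on stromal 1 to 4 and at 10.68, 11.83 and 11.89 on endothelial 1 to 3 (3.11-fold in favour of the stromal arrays, adjusted p = 0.00255). Its difference of 1.64 was 0.68 and not called with the mean of its probe sets, the second of which stood at -0.29, and 2.43 with the hybridisation-control block. Txnrd1, the cytosolic reductase, lay at 9.54, 9.76, 9.31 and 9.75 against 8.11, 8.61 and 8.03 (2.53-fold, adjusted p = 0.00100). Its difference of 1.34 was 0.27 with the mean of the probe sets, 0.72 with quantile normalization applied again and 0.71 after cyclic loess, none of them called.

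Txnrd3, a reductase with an added glutaredoxin domain known from testis, was 5.55-fold higher on the stromal arrays (8.24 to 8.77 against 5.35 to 6.55, adjusted p = 1.95e-04), with a difference of 2.47, or 1.24 with the mean of its probe sets. The mitochondrial Txnrd2 lay at 6.98, 7.62, 7.65 and 6.74 against 9.01, 9.79 and 6.29. Endothelial 3 fell below every stromal array while the other two stood above them, and the gene was not called (-1.12, 95% interval -2.83 to 0.59). Without endothelial 3 its difference was -2.15 (adjusted p = 0.00147), and without endothelial 2 it was -0.40.

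Of 11 thioredoxin-domain and thioredoxin-like genes tested, 4 were called stromal, beside 30.9% of all genes tested. They were Txndc5, Txndc15, Txndc12 and Txndc11. Txndc5, a protein disulfide isomerase of the endoplasmic reticulum, lay at 10.38, 10.09, 9.55 and 9.90 against 7.18, 6.70 and 6.30 (9.55-fold, adjusted p = 2.62e-05). Its second probe set stood at 1.19, and the difference of 3.26 was 2.22 with the mean of both and 2.60 after cyclic loess. Txndc15, Txndc12 and Txndc11 were higher by 2.31 (adjusted p = 1.56e-04), 1.97 (adjusted p = 2.17e-04) and 1.36 (adjusted p = 0.0125). With the mean of the probe sets Txndc15 stood at 0.97 and Txndc11 at 0.42, and both calls were lost. Txndc12 stood at 1.35 after cyclic loess, and Txndc15 at 2.97 with the hybridisation-control block.

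The remaining thioredoxin-domain genes were not called, apart from Txndc8. Txndc9, Txndc16 and Txnl1 stood at 0.88, 0.88 and 0.79 and did not reach the required difference (adjusted p = 0.00407, 0.00470 and 0.00487). Txndc16 was called without endothelial 2 (1.06), Txndc16 and Txnl1 with the hybridisation-control block (1.08 and 1.06), and Txndc9 with the mean of its probe sets (1.09) or when those that can match several genes were left out (2.15). Txndc17, Txnl4a and Txnl4b were not called either (0.07, 0.45 and -0.03), and Txnl4a turned to -0.23 with quantile normalization applied again and to -0.20 after cyclic loess. Txndc8, a testis form, was the 1 gene of these 11 called endothelial, at 5.76 to 6.35 against 4.82 to 5.12, a dim signal whose call was lost without stromal 1 (-0.98), stromal 3 (-0.99) or endothelial 1 (-0.84), with quantile normalization applied again (-0.82) and after cyclic loess (-0.51). Txndc2, another testis form, lay below the filter.

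Enzymes that act on superoxide and hydrogen peroxide without a thiol cofactor also split. Cat, which encodes the peroxisomal catalase, lay at 10.06, 10.63, 10.50 and 10.16 on stromal 1 to 4 and at 12.73, 12.40 and 12.60 on endothelial 1 to 3 (4.73-fold in favour of the endothelial arrays, adjusted p = 4.12e-05). Sod2, the mitochondrial manganese dismutase, lay at 12.22, 12.82, 12.70 and 12.33 against 10.84, 11.39 and 9.16 (4.15-fold in favour of the stromal arrays, adjusted p = 0.00631). Endothelial 3 was the lowest array for Sod2, and the difference of 2.05 was 1.40 without it. The call was lost with the hybridisation-control block (1.67, adjusted p = 0.0935).

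Sod3, the extracellular dismutase, lay at 5.78, 6.57, 6.14 and 6.21 against 4.14, 4.46 and 4.54, the latter all below the 40th percentile (1.80, adjusted p = 2.68e-04, and 0.73 and not called with the mean of its probe sets). Sod1, the cytosolic copper-zinc enzyme, was higher on every endothelial array (13.38 to 13.63 against 12.82 to 13.03) by less than the required difference (-0.59, adjusted p = 0.0123). Nqo1, a quinone reductase and a standard NRF2 target, stayed close to the lower end of the arrays on both sides, at 6.25, 5.82, 5.91 and 6.19 against 6.24, 5.95 and 7.20. The groups overlapped and Nqo1 was not called (-0.42, 95% interval -1.13 to 0.28, adjusted p = 0.242).

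Several members were read by more than 1 probe set. The 62 members had 120 probe sets, of which 103 passed the same filter, and 35 of these were called stromal and 21 endothelial (43.3% of all 24519 probe sets tested were called). In 28 members more than 1 probe set was tested. All were called in 1 direction in 9 of them (Cat, Gclc, Gclm, Gpx4, Gsto1, Prdx2, Prdx4, Srxn1 and Txndc5), only some were called in 11, none in 8, and no member had calls in both directions. Txnip, Txnrd1, Txndc15 and Sod2, all called stromal, each had a probe set below 0, at -0.29, -0.20, -0.36 and -0.43. Txnl1, not called by the probe set used, had 2 others called stromal, at 2.21 and 2.23.

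**Figure D4:**
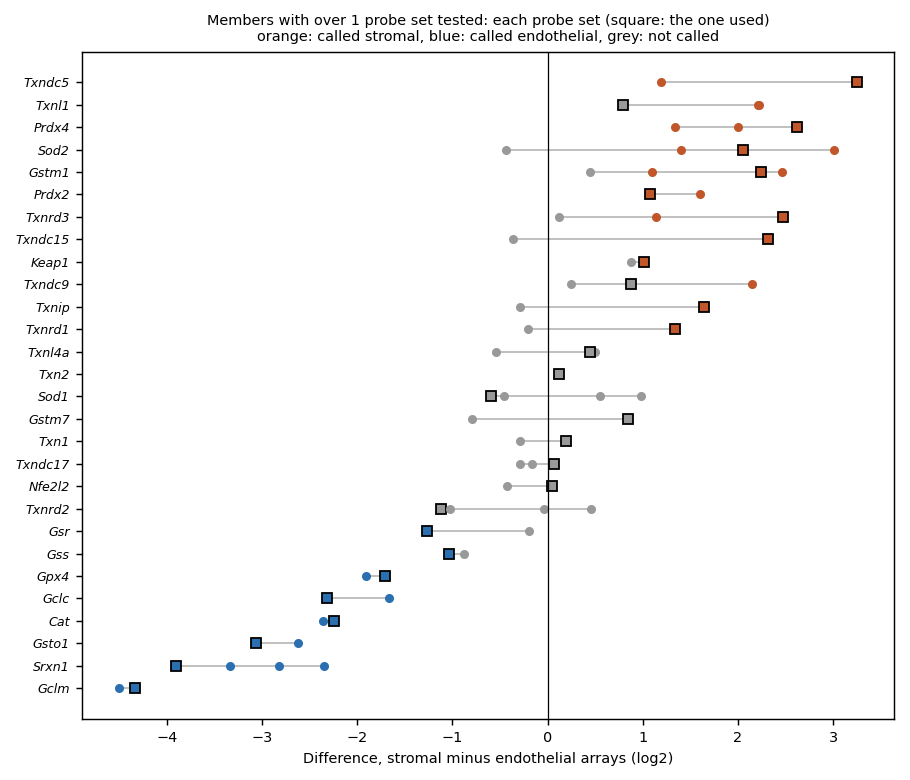
Difference, stromal minus endothelial (log2, horizontal axis), of every probe set tested for the 28 members with more than 1; the square is the probe set used for the gene and colours give the call at the level of probe sets. The 4 probe sets of Srxn1 lie between -3.90 and -2.35, while the 2 of Txnrd1 lie at -0.20 and 1.34.

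Genes that work with NRF2 on the same DNA elements were examined next. Of 10 partners and regulators tested, 4 were called endothelial and 1 stromal, with a median difference of -0.45 (0.19 over all genes tested). Among all genes tested, 16.1% were called endothelial and 30.9% stromal. Nfe2, which encodes the NF-E2 subunit p45 and drives platelet genes, lay at 7.27, 6.81, 5.71 and 6.73 against 13.26, 12.65 and 13.28 (86.3-fold in favour of the endothelial arrays, adjusted p = 2.72e-06). The small MAF genes Mafg and Mafk, whose products pair with p45 and with NRF2, stood at -1.44 (adjusted p = 0.00450) and -1.40 (adjusted p = 2.91e-04). Bach1, a repressor that competes for these elements, stood at -1.06, or at -0.88 with the hybridisation-control block, -0.92 without stromal 1, -0.99 without stromal 3 and -0.95 without endothelial 2, all short of the threshold. Nfe2l1, a relative of NRF2, was called stromal, at 9.25, 10.49 and 10.92 on endothelial 1 to 3 and 11.26 to 11.69 on the stromal arrays. That call was lost without endothelial 1 (0.75), after cyclic loess (0.94) and with the replicate number as a block (adjusted p = 0.0548), while the hybridisation-control block brought it to 2.21. All 10 megakaryocyte and platelet markers were called endothelial too. Among the stromal arrays their mean level was highest on stromal 4 (8.40), whereas Nfe2 was highest on stromal 1 (7.27). The part of megakaryocyte or platelet RNA in these calls was not tested.

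Other known NRF2 targets were examined as a list. Of 11 tested, 6 were called stromal, 1 endothelial and 4 neither (median 1.32). Over all genes tested, 30.9% were called stromal and 16.1% endothelial. The carbonyl reductase gene Cbr3 was 69.3-fold higher on the stromal arrays, Ephx1, the microsomal epoxide hydrolase, stood at 4.95 and Aldh3a1 at 4.52. Blvrb, which encodes biliverdin reductase B, was 7.66-fold higher on the endothelial arrays. Hmox1, the inducible haem oxygenase, was not called (0.43, adjusted p = 0.0439), and Slc7a11, the cystine importer, lay below the filter at 4.07 to 4.90 on all arrays.

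Glutathione breakdown genes were called in both directions. Over all genes tested, 30.9% were called stromal and 16.1% endothelial. Of 15 breakdown, precursor and related genes tested, 5 were called stromal, 3 endothelial and 7 neither (median 0.65). The stromal count was 3 without stromal 4, without endothelial 3, under both renormalizations, with ribosomal centring and with either block. Among those called stromal were genes of surface enzymes that cleave glutathione and its products, with Dpep1 108-fold and Ggt5 35.3-fold higher, and Oplah, the 5-oxoprolinase that returns glutamate, 2.59-fold. Chac2, which degrades glutathione in the cytosol, was 9.66-fold in favour of the endothelial arrays (adjusted p = 1.20e-05), beside Cbs at -1.39 (-2.10 with the block) and Chac1 at -1.297. The Chac1 call was lost without any one stromal array (-1.33 to -1.27), without endothelial 2 (-0.68) and with the block (-0.42).

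Genes listed around the supply of NADPH, which both thiol systems consume, were mixed. Calls over all genes tested were 30.9% stromal and 16.1% endothelial. Of 12 tested in this list, 4 were called stromal and 2 endothelial (median 0.55). The stromal count was 2 when stromal 1, stromal 2, stromal 3, endothelial 1 or endothelial 3 was left out. Taldo1 and Nadk2 made up the endothelial side, 12.7-fold and 9.22-fold higher, while Nnt, Me1 and Me3 stood at 1.40, 1.32 and 1.303. The Nnt call was lost without stromal 1 (1.41), stromal 2 (1.48), stromal 3 (1.13), endothelial 1 (1.33) or endothelial 3 (0.87), and after cyclic loess (0.74). Taldo1 encodes transaldolase of the pentose phosphate pathway and Nadk2 the mitochondrial NAD kinase, so their calls do not show higher NADPH formation. Nor do the stromal calls, Nnt included, which describe transcript levels alone. Pgd, Idh1 and Idh2 were not called (0.01, 0.79 and 0.70).

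Components of the NADPH oxidase, the superoxide source of phagocytes, were called endothelial in 5 of 7 tested, with none called stromal (median -1.95). Among all genes tested, 16.1% were called endothelial and 30.9% stromal. Ncf1 stood at -2.52, Rac2 at -2.32 (both at -1.35 with the mean of their probe sets) and Ncf4 at -1.98. All 3 were highest on endothelial 2, the array with the highest neutrophil and monocyte marker levels. Rac2 was so only by a little (9.28, against 9.21 and 9.10). Cyba, also called, was lowest on endothelial 2 (13.00, against 13.30 and 13.44), and Rac1 was highest on endothelial 1 (13.98). The part of neutrophils and monocytes was not tested. Without stromal 4 and endothelial 2 together, Ncf4 stood at -1.16 and was not called. The catalytic subunit gene Cybb overlapped between groups and was not called (-0.24, adjusted p = 0.622).

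Several members are selenoproteins, so the genes that make this class were listed as well. Beside the counts here, 30.9% of all genes tested were called stromal and 16.1% endothelial. Of 9 selenoprotein synthesis genes 4 were called stromal and 1 endothelial (median 0.92). The latter was Sephs2, which makes the selenium donor and was 11.8-fold in favour of the endothelial arrays (adjusted p = 3.60e-06), whereas its paralogue Sephs1 stood at 2.25 and Secisbp2l and Secisbp2 at 1.93 and 1.61. Without endothelial 3 these last were 1.16 and 1.05, and the block ended both calls (1.43 and 1.53). Among other selenoproteins 5 of 14 tested were called stromal and 1 endothelial (median 0.39), the latter count being 2 without stromal 3 or endothelial 1. Selenop, the secreted selenium carrier, lay at 13.81 to 14.04 against 11.08 to 11.75 (5.82-fold higher on the stromal arrays), and Selenon and Selenos at 3.01 and 2.49, while Msrb1 stood at -1.22. Of 13 glutaredoxin and sulfoxide reductase genes 4 were called stromal, with Msrb3 10.9-fold, Sesn3 5.50-fold and Qsox2 4.98-fold higher, and 2 endothelial, Msrb1 and Qsox1 (-1.23). The mean of its probe sets brought Msrb3 from 3.44 to 1.57. The Qsox1 call was lost when any one stromal array (-1.33 to -1.05), endothelial 1 (-1.16) or endothelial 3 (-0.74) was left out.

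**Figure D5:**
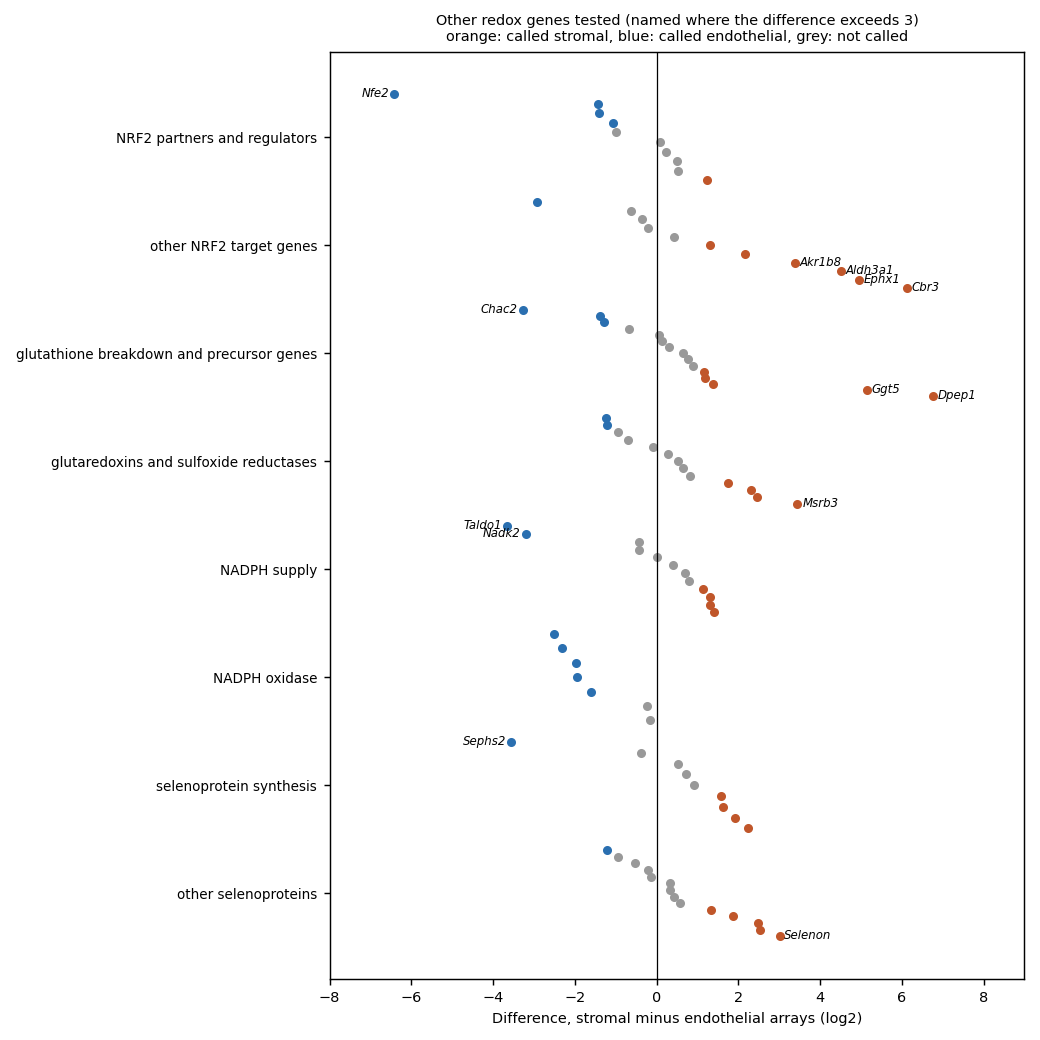
Differences, stromal minus endothelial (log2, horizontal axis), of the genes tested in 8 further redox lists; each point is a gene, coloured by its call and named where the difference exceeds 3 in size. Nfe2 stands alone at -6.43 among the NRF2 partners, and all 5 calls among NADPH oxidase genes lie left of 0.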

How the data were processed

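The deposited values are log2 expression values per probe set. The submitters' processing notes name Affymetrix Expression Console 1.1 and RMA for them; which arrays were normalized together, and any genome build, are not given in the sources used here. The table held 45101 probe sets on 7 arrays, with medians from 6.00 to 6.19. Array data have no read depth, so the number of arrays limits the precision. Symbols came from a platform annotation of 2016, and 34945 probe sets had 1 symbol.

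Control probe sets were left out, and a gene was read from whichever of its probe sets was brightest on average. Differences were fitted without covariates in limma 3.58.1 under R 4.3.3 (lmFit, then eBayes), and p-values were adjusted by Benjamini-Hochberg across every tested gene. The procedure was tested on simulated data. No fold is given for a gene whose mean in either group was under the 40th percentile of those arrays. The 16 further lists, of redox genes and cell markers, hold 203 distinct genes, and a list's mean level is the mean log2 value of its genes on the array. Per-array values are given for the 8 called members with the largest difference in each direction without overlap and for a fixed set of central genes. Of the other redox lists, up to 3 called genes per direction and a few central ones are named. Each fit that left out an array kept the probe sets and the genes tested. The members, lists, tests and alternatives were chosen with earlier results of these data known.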

Additional observations from a re-analysis of the deposited data

Results flagged for a closer look

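In the 4 stromal arrays, 5 of 58 members tested had 1 array far from the other 3, by Dixon's criterion for 4 values, which chance meets in about 1 in 20 groups. Stromal 4 was the lowest array for Gpx1 (10.84, others 11.75 to 11.84), Gpx7 (9.90, others 10.42 to 10.50) and Mgst3 (7.19, others 7.84 to 7.90). Stromal 2 was the highest for Gsta4 (10.32, others 10.17 to 10.18), and stromal 1 the lowest for Gsto1 (8.23, others 8.49 to 8.55). Gpx1, Gpx7, Gsta4 and Gsto1 stayed called without the array in question, and Mgst3 stayed uncalled.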

How the results depend on the processing

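The text rests on 7 arrays, and 21 alternatives were run. None turned the direction of a called member. Of the 36 members called, 21 stayed called under each alternative and 15 were lost under at least 1; of the 22 not called, 13 were called under at least 1. With treat, which tests against a log2 difference of 1, 15 members were called stromal and 8 endothelial in place of 23 and 13, and over all genes 2220 and 855 in place of 4319 and 2252. The members lost there were Gpx1, Gpx2, Gsr, Gss, Gstt2, Gstt3, Keap1, Prdx2, Sod2, Txndc8, Txndc11, Txnip and Txnrd1. With an adjusted p alone the counts were 28 and 18 (over all genes 5170 and 4412). Under the other 19 alternatives they were 18 to 25 and 11 to 15, and 21 to 25 and 11 to 14 with 1 array left out. Of all calls over all genes, 65.7% were stromal as deposited, 52% with quantile normalization applied again, 57.8% after cyclic loess and 54% with an adjusted p alone. The median difference over all genes was 0.19 as deposited, -0.12 and -0.03 under these normalizations. Of the 32 counts of calls in the further lists, 17 moved by over 1.5 times with treat, 11 with the hybridisation-control block and 8 with cyclic loess. With the replicate number as a block, 23 and 13 members were called and no member's call changed, but 5 of the 32 list counts moved by over 1.5 times: the stromal calls among NRF2 partners were 0 in place of 1 and among glutathione breakdown genes 3 in place of 5, the endothelial calls among glutaredoxins 1 in place of 2, and the stromal calls among monocyte and mast cell markers 0 in place of 1 each; deviations of same-numbered arrays correlated at -0.002, 0.035 and 0.117, so the numbers were not taken to pair the samples. The cause of these changes was not tested.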
